A study of Homo sapiens with 4 samples.

Results

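The D-type cyclins, their kinases and the inhibitors and substrate that act with them in G1 were followed in Z138 cells whose SOX11 had been lowered by RNA interference. Members were chosen by gene symbol: CCND1, CCND2, CCND3, CDK4, CDK6, CDKN1B, CDKN2A, CDKN2C, CCNE1 and RB1. Every probe set whose platform annotation gives exactly 1 of these symbols was taken, which gave 24 probe sets of 9 genes, out of 19775 genes and 41091 probe sets with 1 symbol and 54675 probe sets in all. No such probe set was listed for the INK4 family inhibitor CDKN2C, so it was not analysed here. The Z138 line is an established human cell line derived from a mantle cell lymphoma, a cancer of B cells. The tested cells carried stable lentiviral hairpins that target SOX11, 1 array each for shSOX11.1 and shSOX11.3, and the comparison cells carried scrambled hairpins (shControl.1 and shControl.2, 1 array each). All 4 arrays were Affymetrix U133 Plus 2.0 arrays hybridised with biotin-labelled RNA, and all cells had therefore been through viral transduction. Each array stands for another hairpin, and the labels name no separate cultures of the same hairpin. P-values thus measure the spread among these arrays alone. That spread may come from the hairpins or be technical, and the 2 cannot be told apart.

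D-type cyclins bind CDK4 or CDK6 in G1, and the active kinases phosphorylate the retinoblastoma protein RB1. RB1 then releases the E2F transcription factors, whose targets include cyclin E and the genes of DNA synthesis. INK4 proteins, among them a product of CDKN2A, bind CDK4 and CDK6 directly, while CDKN1B belongs to the Kip family, which inhibits cyclin E with its kinase CDK2. In mantle cell lymphoma CCND1 is typically brought under the immunoglobulin heavy chain locus by a translocation, and cyclin D1 is the defining cyclin of that tumour.

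SOX11, the target of the hairpins, was lower with both hairpins against it, whichever of its 3 probe sets was read. The brightest, 204914_s_at, gave a signal of 335 and 339 on shSOX11.1 and shSOX11.3, against 797 and 787 on the shControl arrays. That is 42.5% of control. Its log2 change of -1.23 (SE 0.16) had a limma adjusted p of 0.206, so SOX11 itself did not pass 0.05 among the 28202 probe sets tested. The 2% trimmed mean signal was 150 on every array. The beta-actin 3′/5′ signal ratio was 7.29 and 5.31 on the shSOX11 arrays and 11.6 on both shControl arrays. For GAPDH this ratio did not separate the groups. Both shSOX11.1 (1.01) and shSOX11.3 (1.03) lay between shControl.1 (0.98) and shControl.2 (1.06). Of 10 B-cell markers, 9 had a probe set and 8 of these lay above the signal threshold on all 4 arrays. The signals of the 9 summed to 30854 and 27171 on the shSOX11 arrays and to 32809 and 32791 on the shControl arrays. With 1 probe set per gene, 8 of the 9 had a log2 change below 0, where 58.1% of all genes did. Their median log2 change was -0.30 against -0.06 over all genes, and none passed an adjusted p of 0.05 in limma. The T and NK cell marker signals (9 genes) summed to 266 and 273 on the shSOX11 arrays and to 294 and 307 on the shControl arrays. CD3G, a chain of the T-cell receptor complex, was the brightest of them, at 129 and 203 against 160 and 207, and the only other marker past the filter, CD2, was at 25.7 and 6.28 against 26.9 and 22.3. Sums for the myeloid markers (8 genes, 0 of them above the threshold on all arrays) were 118 and 115 against 120 and 100.02. The 2 myeloid markers past the filter passed it through the shSOX11 arrays alone: the growth factor receptor CSF3R was at 30.6 and 30.3 against 8.51 and 7.67, and CSF1R at 25.7 and 28.9 against 15.1 and 8.98. The erythroid markers (3 genes) summed to 80.2 and 82.5 against 126 and 79.6. The epithelial and stromal markers (9 genes, 4 of them past the filter) summed to 1199 and 1012 against 1200.5 and 1195. Most of each of these last sums was the collagen gene COL1A1, at 1047 and 881 against 1063 and 1012. The part of these array-wide differences in the results below was not tested.

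Signals were compared with a threshold of 24.83, the median of all values, and a probe set was tested where at least 2 of the 4 arrays exceeded it. Of the 24 member probe sets 12 passed this filter, covering 8 genes, and 11 of them exceeded the threshold on all 4 arrays. CDKN2A passed solely through its 2 shControl values. None of the 12 passed an adjusted p of 0.05 in limma, where 0.00355% of all probe sets did (1 of 28202). The count was also 0 in limma without the intensity trend and in its robust fit. At an unadjusted p under 0.05 there were 2 higher member probe sets, both of CDK6, against 4.5% of all probe sets. On the lower side there was 1, of CCND3, against 3.76% of all probe sets. Member adjusted p ran from 0.460 to 0.918.

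**Figure D1:**
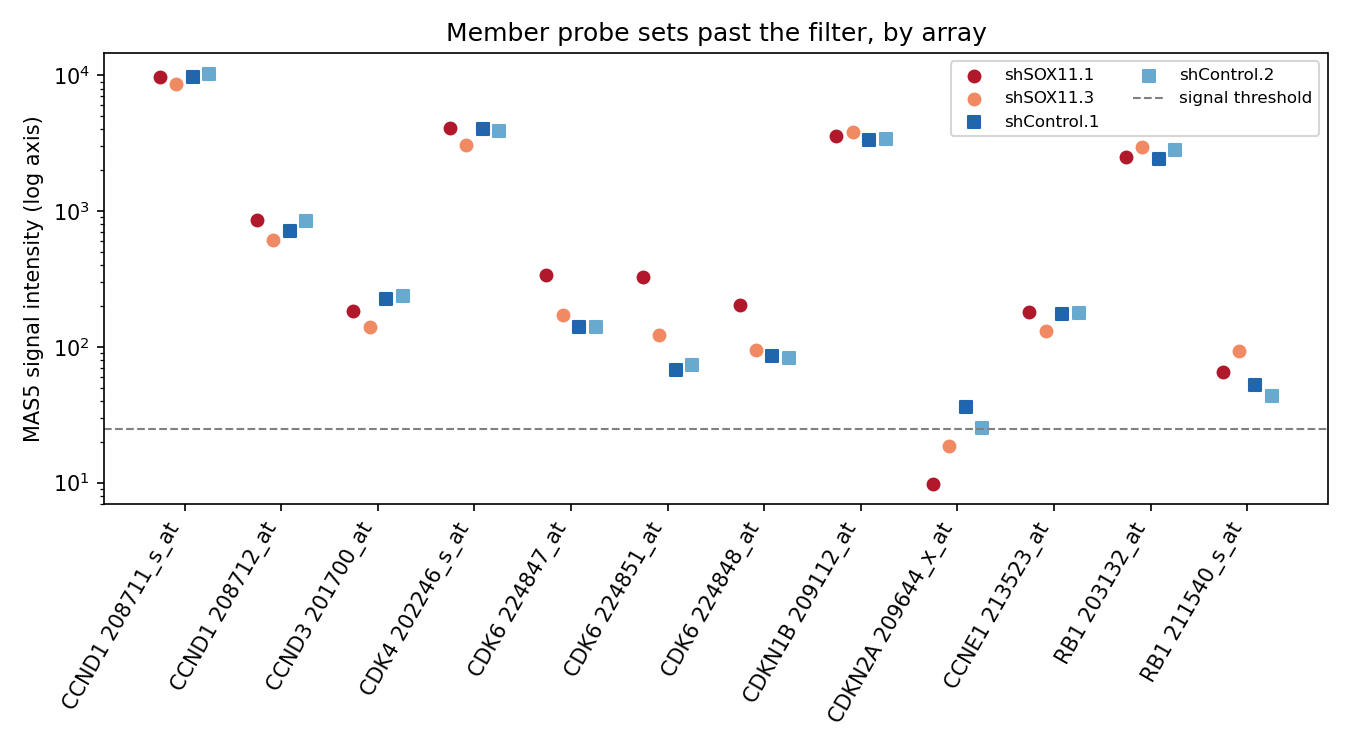
MAS5 signal intensity (log axis) of the 12 member probe sets past the filter, with 1 point per array; red and orange circles are the 2 shSOX11 arrays, blue squares the 2 shControl arrays, and the dashed line is the threshold of 24.83. The 3 CDK6 probe sets show the shSOX11.1 point apart from the other arrays, while those of CCND1, CDK4 and CDKN1B lie close together.

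The order of the arrays gave a second description. A group was called separate where both shSOX11 arrays lay on the same side of both shControl arrays. Among the 12, 5 were separate and higher on the shSOX11 arrays, where 18.9% of all probe sets were. A further 3 were separate and lower, where 21.8% of all probe sets were. The higher ones were the 3 probe sets of CDK6, that of CDKN1B and 1 of RB1. CCND1, CCND3 and CDKN2A had 1 lower probe set each, and that of CDKN2A had to be lower, since it entered through its shControl values. Since 3 of the 5 higher ones report the same gene, they are not independent of each other. With 2 arrays against 2, an exact permutation test cannot give a two-sided p below 0.333.

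CDK6 stood furthest from control. This kinase partners the D-type cyclins and is widely used in blood cells. Its log2 change was highest at probe set 224851_at, where shSOX11.1 read 329 and shSOX11.3 read 121, against 67.8 and 73.2 on the shControl arrays. Both shSOX11 arrays lay above both shControl arrays, with shSOX11.1 far above shSOX11.3. The log2 change was 1.50 (SE 0.41, 95% interval 0.58 to 2.43), a 2.84-fold difference, with a limma adjusted p of 0.460. Of the 28202 probe sets tested, 190 had a log2 change at least as high.

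At the other CDK6 probe sets past the filter, shSOX11.1 was again highest and shSOX11.3 second. At 224847_at, the brightest, the signal was 338 and 173 on the shSOX11 arrays against 139 and 141 on the shControl arrays. At 224848_at it was 204 and 94.4 on the shSOX11 arrays against 85.9 and 83.0. Each time the shControl arrays lay close together below both shSOX11 arrays. The log2 changes were 0.79 (SE 0.30, 95% interval 0.10 to 1.48) and 0.72 (SE 0.35, 95% interval -0.07 to 1.50), with limma adjusted p of 0.555 and 0.618.

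The CDK6 difference was not the same size on the 2 shSOX11 arrays, and with 1 array per hairpin, hairpin and array cannot be told apart. Against the shControl mean, CDK6 was between 2.41-fold and 4.67-fold higher on shSOX11.1 over the 3 probe sets. On shSOX11.3 it was between 1.12-fold and 1.72-fold higher. The log2 gap between the shSOX11 arrays (shSOX11.3 minus shSOX11.1) was -1.44 at 224851_at, -0.97 at 224847_at and -1.11 at 224848_at. At the last 2 this gap was wider than the difference between the groups. SOX11 itself was at nearly the same level on both, at log2 changes of -1.24 and -1.23 against the shControl mean at its brightest probe set. Its other probe sets differed more between the shSOX11 arrays, at -1.18 and -1.76 for 204915_s_at and at -1.36 and -0.92 for 204913_s_at. Without shSOX11.3, the log2 changes at 224851_at, 224847_at and 224848_at were 2.22, 1.27 and 1.27. Without shSOX11.1, they were 0.79, 0.31 and 0.16. Each of these values rests on a lone shSOX11 array. CDK6 was also singled out on these same arrays, so the values are no separate test of it.

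**Figure D2:**
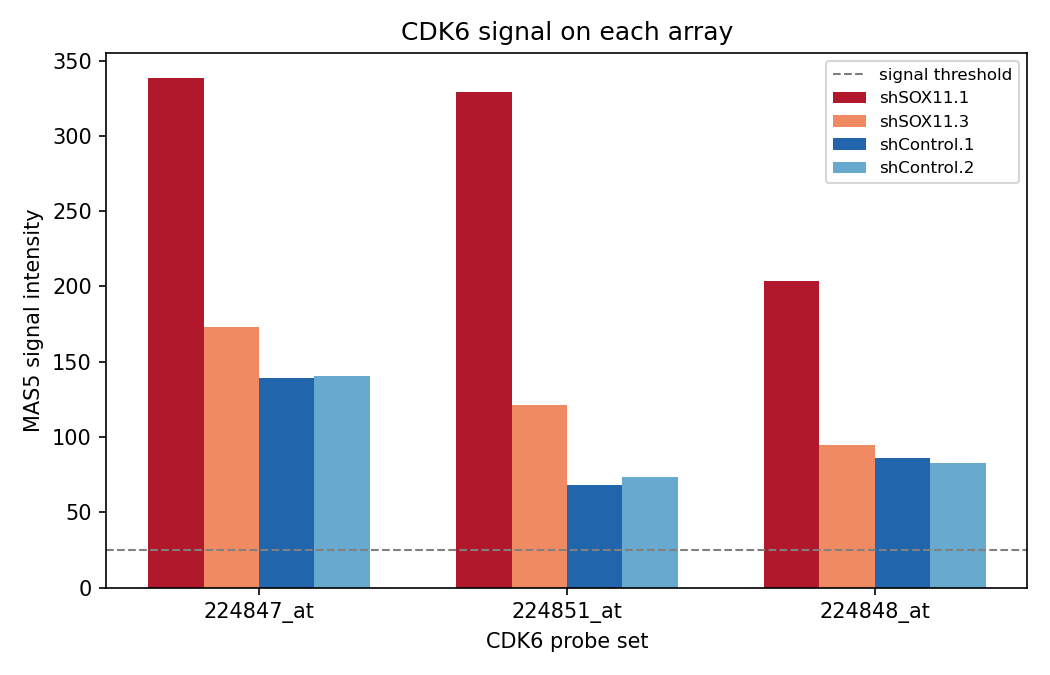
MAS5 signal intensity of the 3 CDK6 probe sets past the filter, with 1 bar per array, the shSOX11 arrays in red and orange to the left of the shControl arrays in blue; the dashed line is the threshold of 24.83. shSOX11.1 is the tallest bar at each probe set (338, 329 and 204), and shSOX11.3 lies nearer to the shControl arrays.

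The remaining 4 CDK6 probe sets did not pass the filter and were under the threshold on all arrays, at signals between 0.663 and 19.2. Their arrays had no common order. At 243000_at the shSOX11 arrays read 14.5 and 17.4 against 18.8 and 19.2, and at 235287_at they read 5.95 and 3.33 against 0.668 and 0.663. Signals this far under the threshold were not compared further.

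The letters before the CDK6 starts are shown because CDK6 was the member with the highest log2 change. SOX proteins bind DNA through an HMG box, for which the words ACAAAG and ACAATG were searched on both strands in the 250 bases before each start of the RefSeq promoter table (build GRCh38.p14). Both sequences lie on the minus strand and read 5′ to 3′, with matches in capitals.
CDK6, start 1, chr7:92836574-92836823: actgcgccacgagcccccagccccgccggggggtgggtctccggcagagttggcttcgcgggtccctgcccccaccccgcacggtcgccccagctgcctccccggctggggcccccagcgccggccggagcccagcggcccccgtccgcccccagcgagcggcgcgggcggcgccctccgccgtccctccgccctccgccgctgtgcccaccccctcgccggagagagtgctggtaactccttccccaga
CDK6, start 2, chr7:92833960-92834209: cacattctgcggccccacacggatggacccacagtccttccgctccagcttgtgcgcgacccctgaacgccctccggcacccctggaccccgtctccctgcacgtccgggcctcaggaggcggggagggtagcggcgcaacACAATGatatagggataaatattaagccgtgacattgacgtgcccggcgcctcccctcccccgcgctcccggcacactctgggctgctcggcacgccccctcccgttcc

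The first CDK6 window, of 80% G and C, held neither word. The second, of 67.6% G and C, held ACAATG once, beginning 109 bases before the start. Over all 35116 windows of this length in the table, 9.29% held ACAATG and 13.7% held ACAAAG. Of the 10 members 8 had 14 starts in the table, and CCND1 and CCND2 had none, so they were not searched. Of these starts 2 held ACAATG (1 of CDK6 and 1 of CDKN2C) and 1 of CCND3 held ACAAAG. Which of the starts Z138 cells use was not tested. The E2F words TTTCCCGC and TTTGGCGC were in 0 of the 14, against 1.39% and 0.550% of all windows. These are matches of letters in short windows, and the arrays do not show whether any factor binds there.

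Among the D-type cyclins, CCND1 and CCND3 had probe sets above the threshold on every array, and CCND2 had none. The CCND1 signal at probe set 208711_s_at was 9753 and 8610 on the shSOX11 arrays against 9760 and 10317 on the shControl arrays. The groups did not overlap, but shSOX11.1 and shControl.1 were nearly equal. The log2 change was -0.13 (SE 0.14, 95% interval -0.44 to 0.18, limma adjusted p = 0.799), and it turned to 0.0041 after quantile normalization. The second CCND1 probe set, 208712_at, read 858 and 613 on the shSOX11 arrays against 711 and 841. There both the highest and the lowest signal came from shSOX11 arrays. Its log2 change was -0.09 (SE 0.20, 95% interval -0.55 to 0.37), and it turned to 0.15 without shSOX11.3 and to 0.029 without shControl.2. These intervals leave room for differences in either direction and do not show equal levels.

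CCND3, a D-type cyclin prominent in lymphocytes, was lower on the shSOX11 arrays. Its signal at 201700_at was 184 and 140 on the shSOX11 arrays against 224 and 238 on the shControl arrays. Both shSOX11 values lay under both shControl values, with shSOX11.3 the lowest. The log2 change was -0.52 (SE 0.21, 95% interval -1.01 to -0.04), 69.6% of control, with a limma adjusted p of 0.576. As many as 2866 of the 28202 probe sets had a change at least as low. Against the shControl mean the log2 difference was -0.33 for hairpin shSOX11.1 and -0.72 for hairpin shSOX11.3, so the array with the smaller CDK6 difference had the wider CCND3 difference. The second CCND3 probe set, 1562028_at, stayed under the threshold, at 19.4 and 13.4 against 5.73 and 1.89, on the opposite side from the first.

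CCND2 is the D-type cyclin that normal B cells induce when they are activated. Its 4 probe sets read between 0.909 and 27.9 over all arrays, and none passed the filter. The highest shControl value was 26.7 at 200953_s_at, where the shSOX11 arrays read 10.3 and 19.8 against 22.6 and 26.7. At 231259_s_at shSOX11.1 read 27.9, shSOX11.3 12.9 and the shControl arrays 24.4 and 1.17, so the 2 shControl arrays alone spanned nearly the whole range. CCND2 was thus near or under the threshold with either kind of hairpin, and no difference could be measured.

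CDK4, the other kinase partner of the D-type cyclins, is represented by 1 probe set, 202246_s_at. Its signal was 4124 and 3089 on the shSOX11 arrays against 4059 and 3892 on the shControl arrays. shSOX11.1 was the highest array and shSOX11.3 the lowest, so the groups overlapped. The log2 change was -0.16 (SE 0.17, 95% interval -0.54 to 0.23, limma adjusted p = 0.807), and it turned to 0.053 without shSOX11.3. CDK4 and CDK6 shared the order of the shSOX11 arrays, with shSOX11.1 above shSOX11.3, but only CDK6 had both of them above control. Whether the changes of CDK4 and CDK6 differ was not tested.

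**Figure D3:**
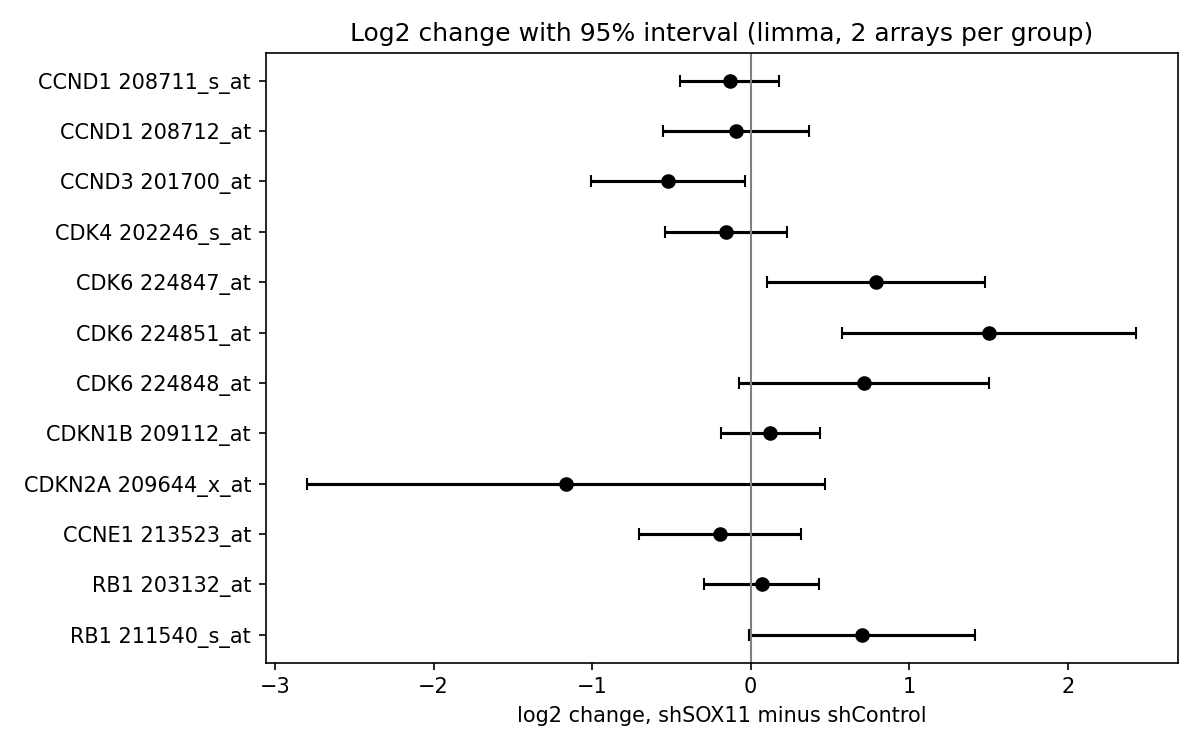
Log2 change (shSOX11 minus shControl) of the 12 member probe sets past the filter, as points with the 95% interval of the limma fit on 2 arrays per group. The intervals of CDK6 224847_at and 224851_at lie above 0 and that of CCND3 201700_at below 0 before adjustment, and the others include 0; CDKN2A passed the filter through its shControl values alone.

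Of the inhibitors, CDKN1B differed little. The protein it encodes restrains cyclin E with CDK2 and can also bind cyclin D complexes. Its signal at 209112_at was 3567 and 3807 on the shSOX11 arrays against 3360 and 3400 on the shControl arrays. Both shSOX11 arrays were above both shControl arrays by a small margin. The log2 change was 0.12 (SE 0.14, 95% interval -0.19 to 0.44, limma adjusted p = 0.809), and 9399 of the 28202 probe sets had a change at least as high.

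CDKN2A, which encodes an INK4 inhibitor and, in another reading frame, an activator of p53, was near or under the threshold. Its probe set 209644_x_at, of the kind Affymetrix marks for possible cross-hybridization, read 9.79 and 18.8 on the shSOX11 arrays against 36.2 and 25.5 on the shControl arrays. Both shSOX11 values were under the threshold and both shControl values just above it. It entered the fit through the group where it was higher, so its difference was set by the filter and is not read as a result. The other 2 CDKN2A probe sets read between 1.91 and 21.3, with overlapping groups. At 207039_at the values were 21.3 and 8.66 against 20.6 and 4.70.

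CCNE1 encodes cyclin E, which drives CDK2 after RB1 has been inactivated. Its signal at 213523_at was 179 and 132 on the shSOX11 arrays against 174 and 177 on the shControl arrays. shSOX11.1 lay with the controls and shSOX11.3 below them. The log2 change was -0.19 (SE 0.22, 95% interval -0.70 to 0.32, limma adjusted p = 0.818), and it turned to 0.031 without shSOX11.3. The second CCNE1 probe set was under the threshold throughout, between 1.63 and 5.62.

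The probe sets of RB1, the pocket protein that the G1 kinases phosphorylate, were unlike each other. At 203132_at the signal was 2506 and 2962 on the shSOX11 arrays against 2404 and 2805 on the shControl arrays. The groups overlapped, and the log2 change was 0.07 (SE 0.16, 95% interval -0.29 to 0.43, limma adjusted p = 0.918). It turned to -0.051 without shSOX11.3 and to -0.042 without shControl.1. At 211540_s_at the signal was 65.3 and 92.6 on the shSOX11 arrays against 52.4 and 43.4. There both shSOX11 arrays were higher, with a log2 change of 0.70 (SE 0.31, 95% interval -0.01 to 1.42, limma adjusted p = 0.609). The larger difference thus came from the probe set nearer to the threshold, and a single direction for RB1 cannot be given.

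The spread between arrays of one kind differed. The log2 gap between the shSOX11 arrays (shSOX11.3 minus shSOX11.1) was 0.09 at CDKN1B, -0.45 at CCNE1, -0.42 at CDK4 and -0.39 at CCND3. Between the shControl arrays (shControl.2 minus shControl.1) it was 0.02, 0.03, -0.06 and 0.09 at the same probe sets. For CCNE1 and CDK4 this gap between the shSOX11 arrays was wider than the difference between the groups.

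Other genes of the G1 to S step were counted from a list written from textbook knowledge, with 1 probe set per gene, the brightest past the filter. Of its 35 genes 32 were tested, 16 higher and 16 lower, with a median log2 change of -0.01 against -0.06 over all 11938 genes. None passed an adjusted p of 0.05 in limma, and 0% of all genes did. At an unadjusted p under 0.05 there was 1 higher gene, where 3.4% of all genes were higher, and 2 were lower, where 4.98% of all genes were.

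CCNE2, the second E-type cyclin, had the smallest p on the higher side, with a signal of 1013 and 1408 on the shSOX11 arrays and of 746 and 835 on the shControl arrays. Its log2 change of 0.60 (SE 0.19, limma adjusted p = 0.462) ran opposite to the value for CCNE1. CUL1, the scaffold of the SCF ubiquitin ligase, and the repressors E2F7 and E2F5 followed, with log2 changes of 0.34, 0.33 and 0.28. On the lower side CDKN1C, a Kip family inhibitor, had a signal of 621 and 564 on the shSOX11 arrays against 960 and 830. CDKN1C thus had a log2 change of -0.59 (SE 0.16) with a limma adjusted p of 0.394. The activator E2F2, the repressor E2F4 and CKS1B, a cofactor in the degradation of Kip inhibitors, had log2 changes of -0.39, -0.45 and -0.45. All 8 of these genes had groups that did not overlap, but they were picked for small p on these same arrays, which favours such genes. Of the 32 tested genes, 6 were separate and higher, where 18.9% of all probe sets were. A further 7 were separate and lower, where 21.8% of all probe sets were. These shares are over probe sets, and those over genes with 1 probe set each were not counted.

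The genes of S phase that E2F factors control did not pass the test in either direction. Of 25 tested, 20 had a log2 change below 0, where 58.1% of all genes did. Their median log2 change was -0.11 against -0.06 over all genes. Of the 25, 2 were separate and higher and 9 were separate and lower. Over all probe sets these shares were 18.9% and 21.8%, and the shares over genes with 1 probe set each were not counted. None passed an adjusted p of 0.05, and at an unadjusted p under 0.05 there were 0 higher and 1 lower, where 3.4% of all genes were higher and 4.98% lower. The 1 gene was GINS2, a subunit of the replication helicase, with 1036 and 944 on the shSOX11 arrays and 1265 and 1230 on the shControl arrays (log2 change -0.33, SE 0.14, limma adjusted p = 0.587). Next by p among the lower genes were the histone methyltransferase EZH2, the nucleotide hydrolase DUT and the helicase subunit MCM7, with log2 changes of -0.34, -0.22 and -0.31. On the higher side the origin licensing factor CDC6 was at 572 and 624 against 566 and 465, with a log2 change of 0.22. SLBP, MCM4 and CHEK1 lay between 0.03 and 0.06. The summed signal of the 25 genes was 69163 and 65139 on the shSOX11 arrays against 73252 and 74934 on the shControl arrays, so both shSOX11 sums were lower.

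**Figure D4:**
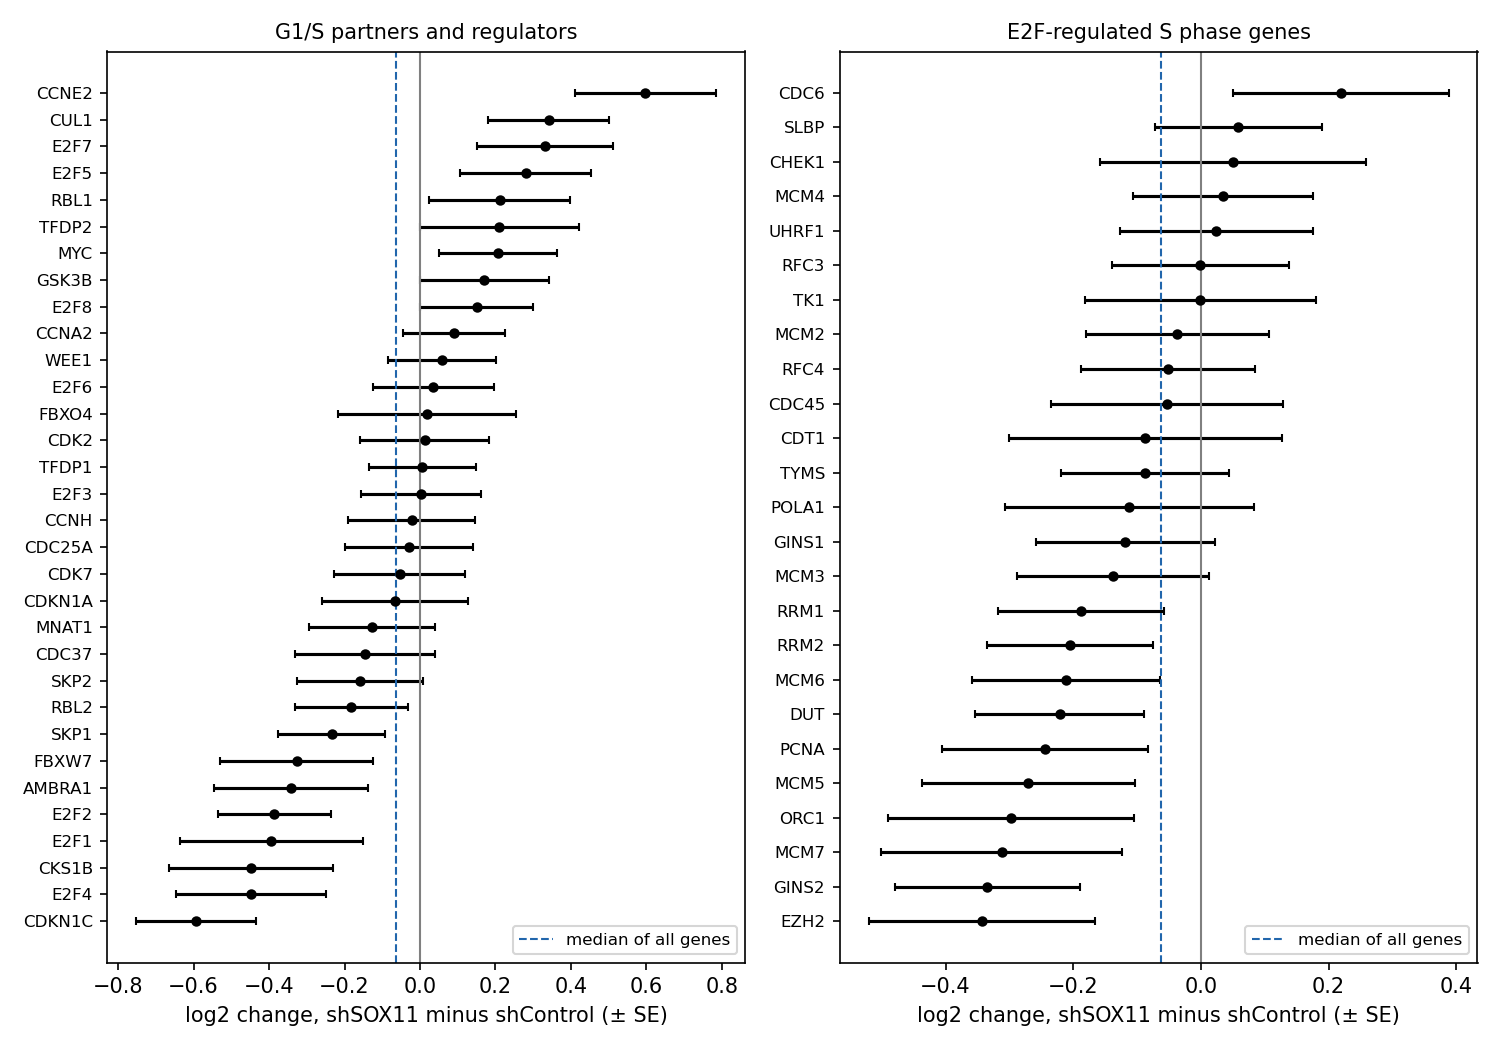
Log2 change (shSOX11 minus shControl, points with the standard error of the limma fit) of 32 genes of the G1 to S step on the left and 25 E2F-regulated S phase genes on the right, sorted within each panel. The dashed line is the median of all genes at -0.06, and 16 genes on the left and 20 on the right lie below 0.

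Patterns over the 4 arrays were matched by the Euclidean distance of log2 signals, each centred on its own mean. The genes nearest to CCND1 (208711_s_at) were DCAF7, FAM199X and TOR1AIP2, at distances between 0.01 and 0.02. FAM199X read between 27.6 and 33.3 and TOR1AIP2 between 23.0 and 27.9, near the threshold, while CCND1 read between 8610 and 10317. Nearest to CDK6 (224847_at) were STS, ARMCX5 and COQ6, at distances of 0.10, 0.15 and 0.19. STS, the steroid sulfatase, read 752 and 393 on the shSOX11 arrays against 331 and 306, the same order of shSOX11 arrays as CDK6. Each distance rests on 4 arrays that all come from the same experiment.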

How the data were processed

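Per the submitters' processing notes, the authors used MAS5 and Affymetrix Expression Console, and the deposited values are linear signal intensity, 1 value per probe set and array. The sources used here give neither the versions nor the scaling target. The 2% trimmed mean was the same on every array. MAS5 subtracts mismatch signals, which makes dim probe sets noisy, and the number of arrays limits the precision.

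Groups came from the sample titles. Symbols came from the platform annotation. Of the 41091 probe sets with 1 symbol, 41037 had an Entrez identifier found in RefSeq (GRCh38.p14), with 0 symbols updated. The 62 array controls were left out. Intensities were log2 transformed with no pseudocount. Limma 3.58.1 in R 4.3.3 (lmFit, eBayes with an intensity trend, two-sided) tested all 28202 probe sets past the filter, with Benjamini-Hochberg adjustment at 0.05 and 2 residual degrees of freedom (8.67 after moderation). For the pathway lists, 11938 genes were tested with 1 probe set each. The code was tested on simulated data.

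Named were all members, SOX11, up to 4 genes per direction of smallest p from each pathway list, and the 3 nearest patterns to CCND1 and CDK6. CD3G, CD2, CSF3R, CSF1R and COL1A1 were named after their values were seen. The members and lists were chosen with earlier results of these data known. The sources name no build for the arrays.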

Additional observations from a re-analysis of the deposited data

How the results depend on the processing

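With all 4 arrays, the member probe sets passed the adjusted threshold in 0 of 103 combinations of a probe set and a setting. Tried were median centring, quantile normalization, a pseudocount of 32, no filter, a filter at the 65th percentile, limma without the trend or robust, 1 probe set per gene, and an adjusted threshold of 0.10. Only median centring, quantile normalization and the pseudocount change the log2 values, so a direction could turn only in these. The only log2 change that turned was that of CCND1 208711_s_at, at 0.0041 after quantile normalization. The count of all probe sets past the threshold, 1 in the analysis reported, was 0 with median centring, without a filter, at the 65th percentile, without the trend and with 1 probe set per gene. Member probe sets with separate groups numbered 13 of 24 without a filter and 5 of 8 with 1 probe set per gene, against 8 of 12, since more or fewer were counted. The 24 include the 12 probe sets under the filter, at signals between 0.663 and 27.9. The share of all probe sets or genes with separate groups was not counted without a filter or with 1 probe set per gene. Whether 13 of 24 or 5 of 8 is more than among all of them thus cannot be said. With 1 array left out, between 0 and 1585 probe sets passed, between 0 and 3 of them members, and the log2 change of SOX11 lay between -1.24 and -1.23. It passed only without a shSOX11 array, with limma adjusted p of 0.00585 without shSOX11.1 and 0.00682 without shSOX11.3. Member log2 changes that crossed 0 ran from -0.34 to 0.15 at CCND1 208712_at, from -0.36 to 0.053 at CDK4, from -0.42 to 0.031 at CCNE1 and from -0.051 to 0.19 at RB1 203132_at. The causes were not tested. No paired analysis was run, since the labels give no pairing of shSOX11 with shControl arrays. Depth on these arrays is signal over background, and it limits CCND2, CDKN2A and every probe set near the threshold.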
